A study of Homo sapiens with 135 samples.

Results

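Regions bound by TET1 on day 4 were compared between H9 cells given BPK25 and H9 cells given DMSO, a common solvent control. The members were all regions of the day 4 TET1 peak lists of both treatments, 129222 of the 833373 regions in the 36 peak lists of the series (15.5%). The DMSO list held 45019 regions and the BPK25 list 84203. A region was 1 distinct interval of a list, and regions of both lists were shared when they had at least 1 bp in common. DMSO regions with a BPK25 counterpart are called kept, DMSO regions without one lost, and BPK25 regions without a DMSO counterpart gained.

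H9 is an established human embryonic stem cell line. Cells were driven towards neural progenitors in a neural induction medium with SMAD inhibitors, and chromatin immunoprecipitation sequencing (ChIP-seq) was done on days 0, 4 and 9. The series holds 135 samples in 45 groups of 3 replicates, covering 5 antibodies and inputs. TET1, TET2 and TET3 were profiled in DMSO and BPK25 cells, and CTCF and MBD3 also in cells labelled WT. The BPK25 group received the compound at 20 µM with each daily change of medium, and the labels give the same induction protocol for the DMSO group. The labels do not state for how long BPK25 had been present on day 4, nor the amount of DMSO. They also do not say that replicates were separate cultures. All cells came from the H9 line, so the comparison describes 1 genetic background. The labels name an antibody for TET1, CTCF and MBD3, and the antibodies of TET2 and TET3 are not given in the sources used here.

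TET1, TET2 and TET3 are enzymes that oxidise 5-methylcytosine in DNA to 5-hydroxymethylcytosine and further products, which opens a route to the loss of DNA methylation. TET1 is abundant in embryonic stem cells and is known to sit at CpG-rich promoters and at enhancers there. CTCF is a zinc finger protein that binds DNA and anchors chromatin loops together with cohesin. MBD3 is a subunit of the NuRD complex, which joins nucleosome remodelling to histone deacetylation. BPK25 is known as a small molecule that lowers the level of NuRD proteins in T cells. Protein levels were not measured in the files used here.

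Each peak list was called by the authors on the 3 replicates of a group together. The lists therefore carry no spread between replicates, and the 95% intervals given below are Wilson intervals, which cover counting error only. A difference between DMSO and BPK25 cannot be told apart here from a difference between pooled libraries. The files state no depth. As a proxy, the fragments stacked at a peak's summit and the local background there were solved from the deposited fold enrichment and p-value. The median summit pileup was 9 fragments in the DMSO list and 11 in the BPK25 list, over a median background of 1.19 and 2.22 fragments. The lowest background had the other order, with 1.06 fragments in the DMSO list and 0.988 in the BPK25 list. The medians are thus no measure of depth alone. Regions of both lists thus rested on few fragments. Fold enrichment and −log10 q, the measure of a peak's significance, are the authors' values. Classes were compared by them only within a list. Where values of both lists stand side by side for the same regions, they are a description.

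Most TET1 regions of either list had no counterpart in the other list. In the DMSO list 14784 of 45019 regions were kept, 32.8% (32.4 to 33.3), and 30235 were lost, 67.2%. The kept regions met 14873 BPK25 regions, and the other 69330 BPK25 regions, 82.3% of that list, were gained. These shares are what the overlap rule counts and serve as the background for all shares by class below. When the DMSO regions were moved by 10 kb along the chromosome, 5.75% (5.54 to 5.97) met a BPK25 region, so the overlap in place was above that of neighbouring DNA. Moved BPK25 regions met a DMSO region in 3.02%. TET1 had no WT list, so its overlap between lists without BPK25 could not be counted. For CTCF, 39.9% of DMSO day 4 regions met a WT region and 38.4% a BPK25 region. For MBD3 these were 49.2% and 11.7%, from lists of 51109 WT and 15456 BPK25 regions. Lists from cells without BPK25 thus also differed in many regions.

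The BPK25 list was 1.87 times as long as the DMSO list, which gives a DMSO region more chances of a partner. With both lists limited to the 45019 regions of highest −log10 q, 21.0% of DMSO regions were kept and 79.1% of BPK25 regions were gained. The kept share was also lower by more than 1.5 times where the overlap had to cover 50% of both regions (19.9%). It was likewise lower with both lists cut to −log10 q of at least 5 (20.4%) or to at least 4-fold enrichment (17.5%). These cuts also removed weaker BPK25 partners. Of the 7296 DMSO regions of −log10 q of at least 5, 3886 met a BPK25 region of any strength. At 4-fold enrichment or more it was 9690 of 26943.

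The lists met in 15061 pairs of regions, of which 14155 joined 1 DMSO region to 1 BPK25 region. The median overlap of a pair was 177 bp (quartiles 145 and 239), and in the 1-to-1 pairs the summits lay a median of 57 bp apart (quartiles 23 and 135). Summits were within 50 bp of each other in 46.1% of these pairs. The overlap rule chose these pairs, so their closeness is a description. Across the 1-to-1 pairs, the −log10 q in DMSO and in BPK25 were weakly related (Spearman's rho 0.18), as were the widths (rho 0.19). These correlations run across regions of the same libraries and are given as a description. At the edge of the rule, the 76 kept regions with at most 10 bp in common had a median −log10 q of 2.68 and a median width of 209.5 bp. The 68 lost regions with a gap under 10 bp had 2.45 and 234.5 bp.

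For lost regions the median distance to the nearest BPK25 region was 3530 bp, and 14.7% had one within 500 bp. For gained regions the median distance to the nearest DMSO region was 9940.5 bp, and 6.23% had one within 500 bp. These distances run to lists of 84203 and 45019 regions, so the classes cannot be compared by them. With a window of 500 bp on each side, 42.7% of DMSO regions counted as kept.

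Kept regions were wider and stronger than lost regions of the same DMSO list. Kept regions had a median width of 273 bp (quartiles 197 and 399), against 210 bp (173 and 286) for lost regions. The median −log10 q was 3.50 for kept and 2.77 for lost regions, and the median fold enrichment 4.43 and 4.16. Their quartiles overlapped for all 3 measures. The median summit pileup was 10 fragments at kept and 8 at lost regions, over backgrounds of 1.31 and 1.14. These could be solved for 91.0% of kept and 98.1% of lost regions, since the most significant peaks were left out, so the kept median covers a smaller part of its class. More than 1 summit was found in 10.0% of kept and 1.94% of lost regions. Kept regions covered 4.94 Mb in the DMSO list and lost regions 7.59 Mb.

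The same order held inside the BPK25 list. Gained regions had a median width of 198 bp (quartiles 166 and 266), against 242 bp (183 and 346) for the BPK25 regions that met a DMSO region. The median −log10 q was 2.94 for gained and 3.46 for shared regions, and the fold enrichment 3.73 and 3.90. The local background was 2.14 and 2.36 fragments. Gained regions covered 16.5 Mb. More than 1 summit was found in 4.13% of gained and 10.8% of shared regions.

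The kept share was highest at the top ranks of the DMSO list. In 10 rank groups by −log10 q it went from 21.1% (19.9 to 22.3) in the lowest to 58.7% (57.3 to 60.1) in the highest. The rise was not steady, with falls of which the largest was from 28.6% (27.3 to 29.9) in the fourth lowest group to 25.8% (24.6 to 27.1) in the next. By width the share rose at each step, from 19.8% to 59.8%. Ranked by fold enrichment it was 37.5% in the lowest group, between 20.7% and 37.3% in the 8 middle groups and 52.6% in the highest, so it had no steady rise. In the BPK25 list the share that met a DMSO region went from 12.9% in the lowest group by −log10 q to 30.9% in the highest. A wide region overlaps others more easily. When only the base at the DMSO summit had to lie in a BPK25 region, 26.2% of DMSO regions were kept. That share was 16.8% in the lowest of 5 rank groups by −log10 q and 45.3% in the highest. The width of the BPK25 region still enters this count, and the part of width in the order by strength was not tested.

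**Figure D1:**
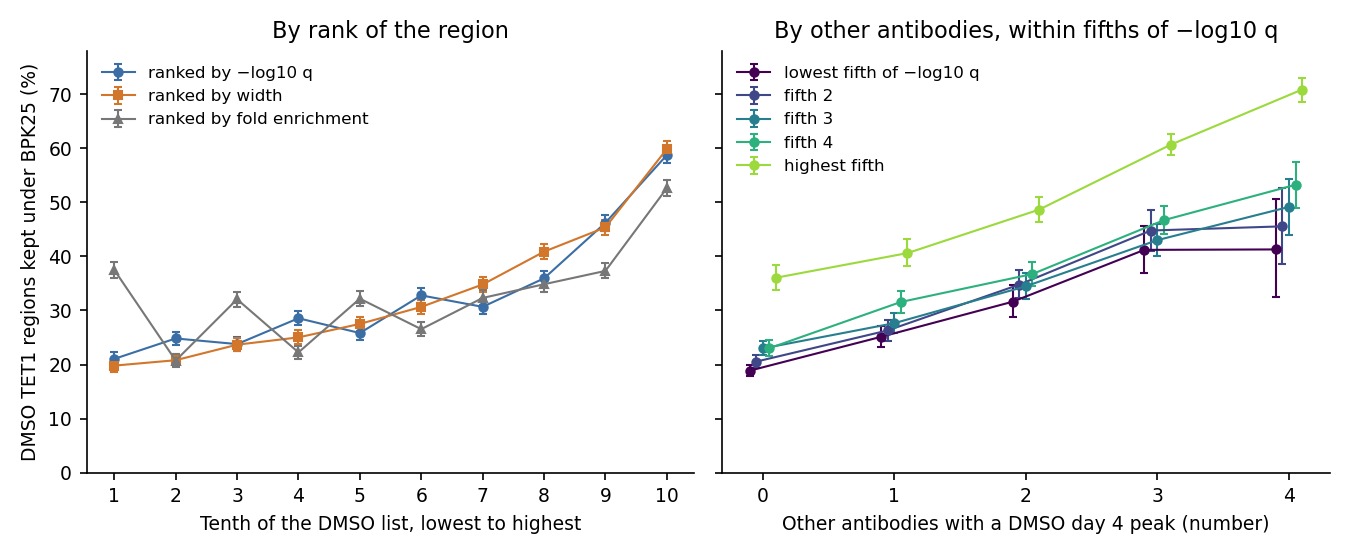
Percentage of DMSO day 4 TET1 regions with a BPK25 counterpart, in 10 rank groups of the DMSO list (left) and by the number of other antibodies with a DMSO day 4 peak in the same region within 5 rank groups by −log10 q (right). Points are shares of regions and bars their 95% Wilson intervals. The share rose to 58.7% in the highest group by −log10 q, and in each of the 5 groups it was higher with 4 other antibodies than with 0.

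Other antibodies were found more often at kept than at lost regions in DMSO cells. TET2, the sister enzyme of TET1, had a DMSO day 4 peak at 52.0% (51.2 to 52.8) of kept and 28.6% (28.1 to 29.1) of lost regions. TET3 was found at 48.9% and 29.0%, and MBD3 at 48.3% and 29.2%. CTCF was found less often, at 18.5% (17.9 to 19.2) of kept and 9.09% (8.77 to 9.41) of lost regions. In percentage points, kept exceeded lost by 23.4 for TET2, 19.9 for TET3, 19.2 for MBD3 and 9.44 for CTCF. At the same regions moved by 10 kb, each of these shares lay between 1.13% and 4.00%. Both TET1 lists were also cut to −log10 q of at least 5, which formed kept and lost anew. Of the 7296 DMSO regions left, 1487 then counted as kept, against 3886 by the uncut BPK25 list. The difference was then 6.32 points for TET3 and 9.07 for MBD3, each lower by more than 1.5 times. That of CTCF was 8.75 and that of TET2 16.7.

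Many of these DMSO regions had peaks of several antibodies, each from its own samples. At kept regions 71.0% had a peak of at least 1 of the 4 other antibodies in DMSO cells, against 50.4% of lost regions. All 4 were present at 11.9% of kept and 3.57% of lost regions. MBD3, TET2 and TET3 without CTCF was the most frequent combination at kept regions, with 2485 regions (16.8%).

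Read the other way, the kept share of DMSO regions followed the number of other proteins. Of the 19279 regions with none of the 4, 22.2% (21.7 to 22.8) were kept. With 1, 2, 3 and 4 the share was 29.8%, 38.3%, 50.97% and 62.1% (60.3 to 63.8). Regions with CTCF were kept in 49.9%, and those without in 30.5%. For TET2 the shares were 47.0% and 24.8%, for TET3 45.2% and 26.0%, and for MBD3 44.8% and 26.3%. Strength and width moved with the number of proteins. Regions with 0 and with 4 other antibodies had a median −log10 q of 2.43 and 5.15 and a median width of 193 and 413 bp.

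The order from 0 to 3 other antibodies was also found within each group by strength and by width. In the lowest of 5 groups by −log10 q the kept share was 18.9% (17.9 to 19.9) with 0 other antibodies and 41.3% (32.5 to 50.7) with 4, and in the highest group it was 36.1% and 70.8%. In the narrowest of 5 groups by width it was 16.8% with 0 and 34.7% (26.1 to 44.3) with 4, and in the widest 40.2% and 68.7%. In the narrowest group the median width was 160 bp with 0 and 162 bp with 4, but in the widest it was 413 and 557 bp, so width still moved with the number of proteins there. By the summit base alone it was 17.9% with 0 and 50.04% with 4. From 3 to 4 other antibodies the share fell in the narrowest group, from 37.8% to 34.7%, and in the next, from 42.2% to 41.0%. The intervals for 3 and for 4 overlapped in every group by −log10 q except the highest. By width they overlapped from the narrowest to the middle group.

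**Figure D2:**
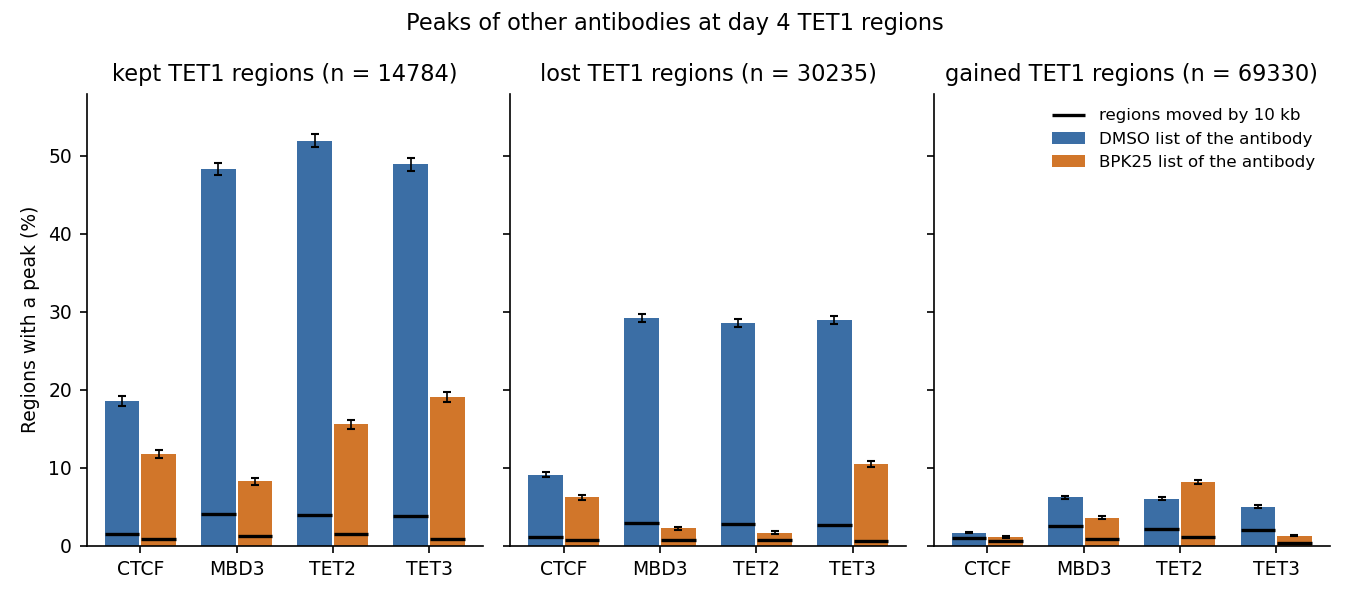
Percentage of kept, lost and gained day 4 TET1 regions with a peak of CTCF, MBD3, TET2 or TET3 in the DMSO (blue) and BPK25 (orange) day 4 list of that antibody. Bars are shares with 95% Wilson intervals, and black lines are the same regions moved by 10 kb. In DMSO lists TET2, TET3 and MBD3 marked 48.3% to 52.0% of kept regions, and at gained regions no antibody passed 8.17% in either list.

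The partners were found less often in the BPK25 lists, also where TET1 was kept. At kept regions MBD3 was found at 8.26% in the BPK25 list, against 48.3% in the DMSO list. TET2 was found at 15.6% against 52.0%, TET3 at 19.04% against 48.9%, and CTCF at 11.8% against 18.5%. At lost regions TET2 was found at 1.67% and MBD3 at 2.20% in the BPK25 lists, whereas TET3 was found at 10.5% and CTCF at 6.18%. At lost regions moved by 10 kb, the BPK25 shares were 0.734% for TET2, 0.711% for MBD3, 0.648% for TET3 and 0.744% for CTCF. Peaks of all 4 antibodies at lost regions were thus still above those of neighbouring DNA.

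The BPK25 lists of these antibodies were shorter than their DMSO lists, 15456 against 46132 regions for MBD3 and 13324 against 36633 for TET2. With the DMSO and BPK25 lists of an antibody limited to the same length, the order was the same for 3 antibodies at kept and lost regions. At kept regions MBD3 was then found at 21.6% in DMSO and 8.26% in BPK25, whereas the TET2 lists gave 30.1% and 15.6% and the TET3 lists 28.7% and 19.04%. At lost regions the values were 10.8% and 2.20% for MBD3, 13.2% and 1.67% for TET2, and 13.9% and 10.5% for TET3. CTCF did not follow. It was found at 11.7% and 11.8% of kept regions, and at lost regions its direction turned, from 5.18% (4.93 to 5.43) in the DMSO list to 6.18% (5.92 to 6.46) in the BPK25 list.

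At regions with a DMSO peak of the partner, the proteins differed in how often the BPK25 list had one too. The lists were not cut to equal length for this count. Over whole lists, 38.4% of DMSO CTCF and 11.7% of DMSO MBD3 regions met a BPK25 region. The shares at kept regions were thus below that of the whole list for CTCF and close to it for MBD3. For TET2 and TET3 the whole lists were not counted. At kept regions TET3 was found again in 32.4% (31.4 to 33.5) and CTCF in 31.7% (30.0 to 33.5), against 15.9% for TET2 and 11.6% for MBD3. At lost regions TET3 was found again in 23.6% and CTCF in 24.3%, whereas TET2 was found again in 2.254% (1.96 to 2.59) of 8652 regions. MBD3 was found again in 4.03% of 8817 lost regions. For TET2 the share at kept and lost regions differed most of the 4 antibodies, in ratio.

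Most gained regions had no day 4 peak of the other antibodies. In DMSO cells 13.1% of them had a peak of any of the 4 other antibodies, in BPK25 cells 12.6%, and in either treatment 22.6% (22.3 to 22.9). In BPK25 cells TET2 was the most frequent partner at 8.17% (7.97 to 8.38), followed by MBD3 at 3.61%, TET3 at 1.30% and CTCF at 1.12%. At the same regions moved by 10 kb these were 1.09%, 0.891%, 0.378% and 0.541%. With lists of equal length TET2 was found at 1.91% of gained regions in DMSO and 8.17% in BPK25, and MBD3 at 1.53% and 3.61%. TET3 did not share this order, with 1.78% in DMSO and 1.30% in BPK25.

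In the DMSO lists, the gap between gained and shared regions was found at low and at high strength. In the lowest of 5 groups of the BPK25 list by −log10 q, 11.9% of gained and 68.1% of shared regions held any of the 4 antibodies in the DMSO lists. In the highest group the shares were 14.4% and 73.1%. Shared regions were chosen for meeting a DMSO day 4 list, so a gap in other DMSO day 4 lists is partly set by the rule. The BPK25 lists were not counted by strength. In all, any of the 4 antibodies had a BPK25 peak at 12.6% of gained and 38.9% of kept regions, the latter counted on DMSO intervals.

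TET1 lists of days 0 and 9 gave a further view of the classes. Gained regions had a TET1 peak in the day 0 BPK25 list at 29.5% (29.2 to 29.9) and in the day 9 BPK25 list at 16.0%. They had one in the DMSO lists of days 0 and 9 at 4.39% and 3.98%. Lost regions showed another order, with 17.8% (17.4 to 18.2) in the day 9 DMSO list, 8.64% and 7.51% in the BPK25 lists of days 0 and 9, and 0.863% in the day 0 DMSO list. Kept regions were found at 34.5% in the day 9 DMSO list, 31.5% in the day 0 BPK25 list, 25.2% in the day 9 BPK25 list and 10.3% in the day 0 DMSO list. Any of the 4 lists had a peak at 64.1% of kept, 29.6% of lost and 39.5% of gained regions.

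**Figure D3:**
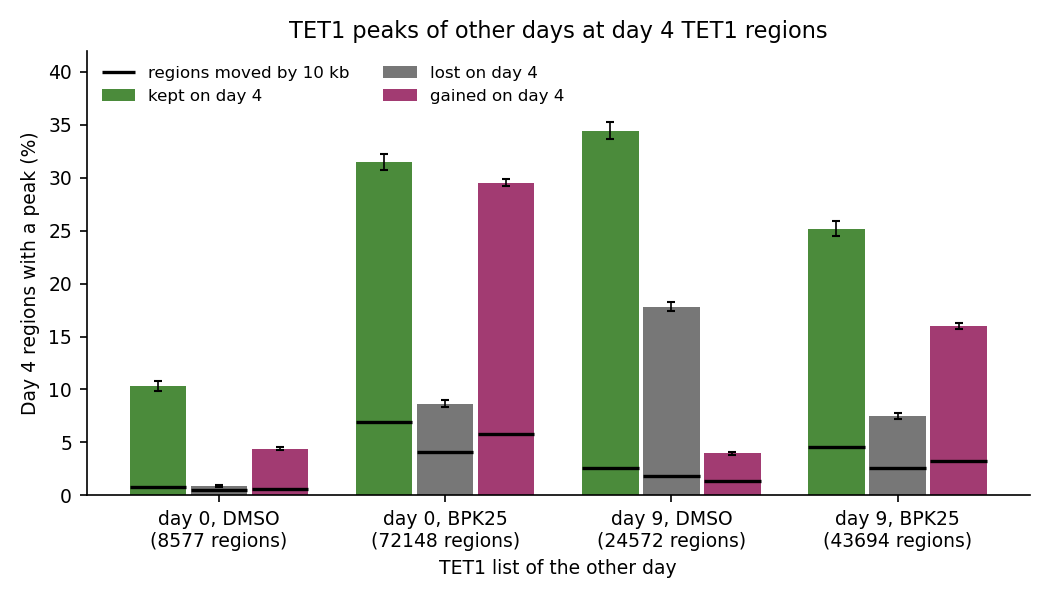
Percentage of kept, lost and gained day 4 TET1 regions with a TET1 peak in the DMSO and BPK25 lists of days 0 and 9, whose lengths stand below the axis. Bars are shares with 95% Wilson intervals, and black lines are the same regions moved by 10 kb. Gained regions reached 29.5% in the day 0 BPK25 list and lost regions 17.8% in the day 9 DMSO list. Kept regions were higher in both, at 31.5% and 34.5%.

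The 4 lists differed in length, from 8577 to 72148 regions. At 8577 regions each, gained regions had TET1 in the day 0 BPK25 list at 6.87% (6.69 to 7.06), the day 9 BPK25 list at 4.84%, the day 0 DMSO list at 4.39% and the day 9 DMSO list at 1.34%. Lost regions had it at 7.49% in the day 9 DMSO list and between 0.734% and 1.29% in the other 3. For kept regions the day 9 DMSO list was highest at 17.8%, and the other 3 gave 9.72% to 10.3%. Gained regions and BPK25 regions shared with DMSO had close day 0 BPK25 shares in groups by strength, with 21.7% and 19.6% in the lowest of 5 groups by −log10 q and 47.9% and 47.6% in the highest. In the day 9 BPK25 list the gained regions were lower, with 11.04% (10.5 to 11.6) against 15.1% (13.7 to 16.7) in the lowest group and 29.2% (28.4 to 30.0) against 40.2% (38.8 to 41.6) in the highest. Both day 4 lists were also cut to −log10 q of at least 5 and the classes formed anew. Of the gained regions of that cut, 51.5% had TET1 in the day 0 BPK25 list.

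Regions of the DMSO list coincided more with TET2, TET3 and MBD3 of the same treatment, but not with CTCF, than with TET1 under BPK25. Of the 45019 DMSO TET1 regions, 36.3% met a TET2 region, 35.5% a TET3 region and 35.5% an MBD3 region of DMSO day 4 cells, against 32.8% for the BPK25 TET1 list, which was the longest of the 36 lists. CTCF of DMSO day 4 cells met 12.2%. To set length aside, all lists of at least 12757 regions were limited to that number, a setting chosen after the data were seen. DMSO TET1 then shared 35.5% of its regions with DMSO TET3 and 35.0% with DMSO TET2. It shared 26.2% with DMSO TET1 of day 9, 23.3% with BPK25 TET3 and 22.4% with DMSO MBD3, all of which exceeded the 15.5% shared with BPK25 TET1. With DMSO CTCF it shared 11.9%. Lists of the same day and treatment may have been called against the same input, and the part of that in these overlaps was not tested.

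The BPK25 list had other nearest lists. At 12757 regions it shared 31.6% with TET2 and 30.8% with TET1 of day 0 BPK25 cells, 30.5% with TET3 of day 0 DMSO cells and 28.4% with TET2 of day 4 BPK25 cells. With DMSO TET1 of its own day it shared 15.6%, with BPK25 TET3 6.94% and with BPK25 CTCF 3.83%. DMSO TET1 shared 7.29% with TET3 of day 0 DMSO cells and 9.29% with TET2 of day 0 BPK25 cells. Under BPK25 the nearest day 4 list was TET2, and under DMSO it was TET3, with TET2 close behind.

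**Figure D4:**
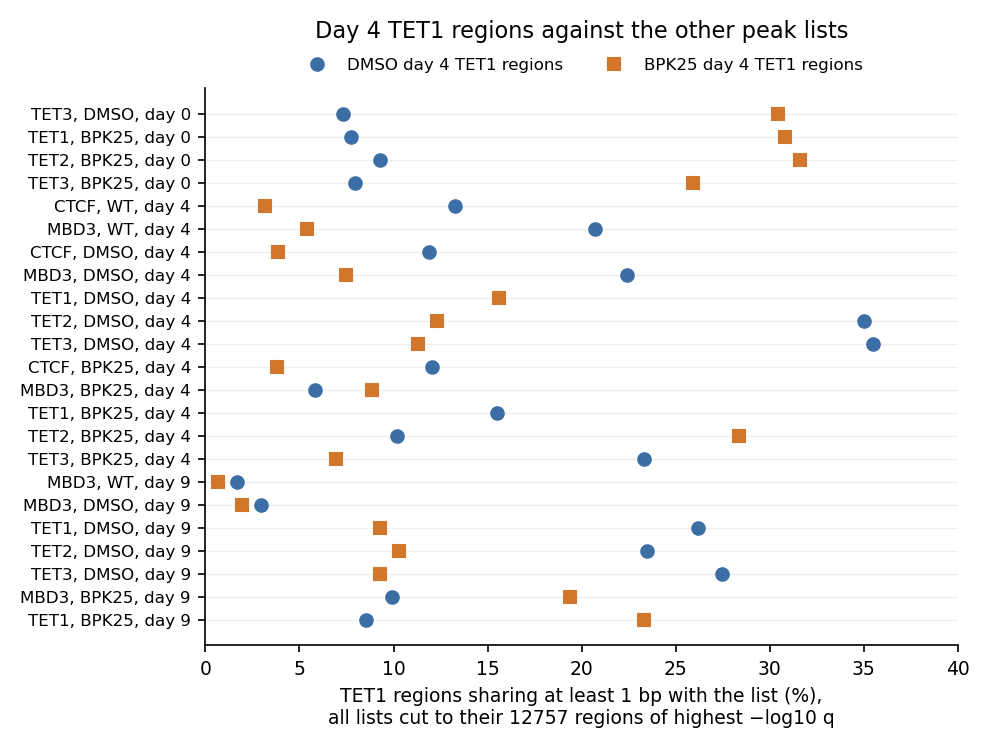
Percentage of DMSO (circles) and BPK25 (squares) day 4 TET1 regions that share at least 1 bp with each list of at least 12757 regions, all limited to their 12757 regions of highest −log10 q. DMSO regions lay nearest to TET3 and TET2 of DMSO day 4 cells (35.5% and 35.0%), and BPK25 regions to TET2 and TET1 of day 0 BPK25 cells (31.6% and 30.8%).

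Positions are given in build hg19, as in the deposited lists. Chromosome 1 held 17.0% of DMSO and 13.5% of BPK25 regions. Its share was 19.4% among kept, 15.8% among lost and 12.1% among gained regions, and 37.6% (36.5 to 38.7) of its DMSO regions were kept. On the other autosomes the kept share ranged from 27.1% on chromosome 6 to 36.4% on chromosome 19. Chromosome 1 also had a higher local background at its summits. The median was 1.49 fragments in DMSO and 2.92 in BPK25, against 1.11 and 2.08 on chromosomes 2 to 22. Over the lists of all antibodies and treatments, chromosome 1 held 8.40% to 13.2% of regions on day 0, 13.2% to 20.7% on day 4 and 13.8% to 25.2% on day 9. The part of this background in the TET1 lists was not tested. Without chromosome 1 the kept share was 31.9% and the CTCF difference between kept and lost regions 8.06 points.

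Chromosome X held 1.04% of DMSO and 2.06% of BPK25 regions, with 3.71 BPK25 regions for each DMSO region, and 90.9% of its BPK25 regions were gained. On the autosomes that ratio lay between 1.48 on chromosome 1 and 2.46 on chromosome 21.

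**Figure D5:**
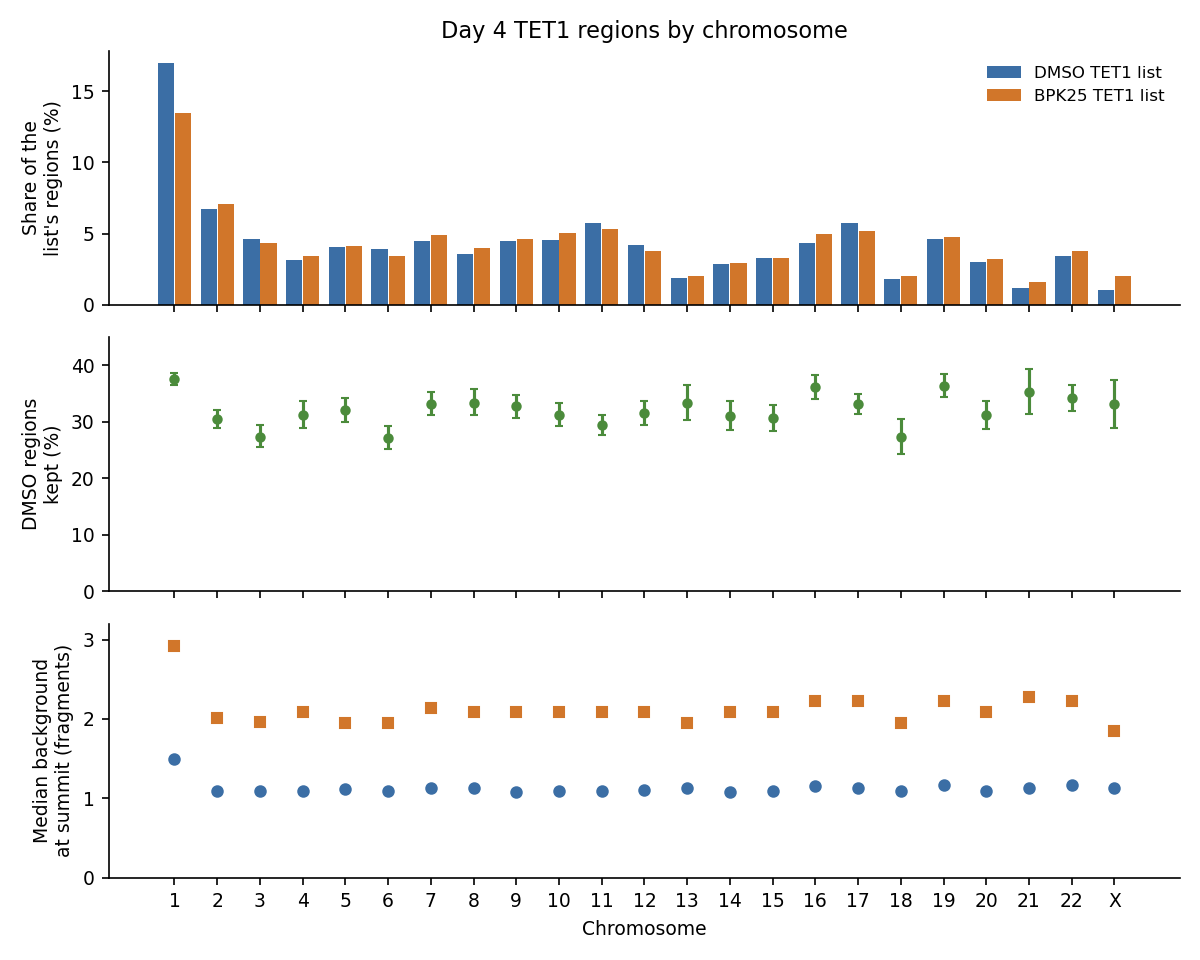
Share of the DMSO and BPK25 day 4 TET1 regions on each chromosome (top, bars), percentage of DMSO regions kept with 95% Wilson intervals (middle) and median local background at the summits in fragments (bottom, circles for DMSO and squares for BPK25). Chromosome 1 held 17.0% and 13.5% of the regions and had the highest background in both lists, 1.49 and 2.92 fragments.

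Kept regions were more frequent near chromosome ends than lost regions of the same list. Within 5 Mb of the outermost peaks of all 36 lists at either end of chromosomes 1 to 22 and X lay 26.8% (26.1 to 27.6) of kept and 17.8% (17.4 to 18.3) of lost regions. In the BPK25 list gained regions did not stand apart, with 27.4% (27.1 to 27.7) against 26.6% (25.9 to 27.3) of the shared regions and 27.3% of all. The gained share was 82.7% near the ends and 82.1% further inside. DMSO regions near the ends were kept in 42.4%, against 30.3% further inside. The BPK25 list held 2.44 regions for each DMSO region near the ends and 1.71 further inside, so the end regions offered more partners as well. In the 1 Mb window with most gained regions, chr1:2000001-3000000, 267 of 370 BPK25 regions were gained, 72.2% against 82.3% in the whole list, and 98 of 176 DMSO regions were kept. In chr10:134000001-135000000, 249 of 295 BPK25 regions were gained (84.4%). In chr16:85000001-86000000, 86 of 127 DMSO regions were lost, 67.7%, which is close to the 67.2% of the whole list.

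Among regions chosen by rank, the 4 strongest lost regions all held CTCF, MBD3, TET2 and TET3 in DMSO cells. At chr13:110076490-110076676 the DMSO TET1 peak had 5.49-fold enrichment and a −log10 q of 39.99, and CTCF and TET3 also had a peak there under BPK25. The 201 bp region chr1:149297763-149297963 had 8.68-fold enrichment and a −log10 q of 25.3, and no antibody had a day 4 BPK25 peak there. Enrichment was higher still at chr3:185303569-185304023, with 10.5-fold, and at chr22:49843520-49843828, with 11.2-fold. The former had CTCF and MBD3 peaks under BPK25, and the latter a TET2 peak. The widest lost region, chr3:122808819-122810347, spanned 1529 bp with 3 summits, and TET3 had a BPK25 peak there.

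The 4 strongest kept regions had lower enrichment, between 3.16-fold and 5.23-fold in DMSO, and peaks in 7 to 16 of the 36 lists. The region chr7:148028667-148028833 had a −log10 q of 49.3 in DMSO and 159 in BPK25, TET2 peaks in both treatments and peaks of all 3 TET proteins on day 0. At chr6:157735184-157735361 TET2 was likewise present in both treatments. The widest kept region, chr11:133815361-133817297, was of another kind. It spanned 1937 bp with 4 summits at 5.84-fold enrichment and held all 4 other antibodies in DMSO and none in BPK25, where TET1 kept a 567 bp region.

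The 4 strongest gained regions had enrichments of 2.00-fold to 3.11-fold, below the list's median of 3.76, and peaks in 10 to 17 lists. The strongest, chr3:196625625-196625773, had a −log10 q of 229 and no other antibody on day 4. Its other peaks, of all 5 antibodies, were on day 0. The regions chr10:42387236-42387395 and chr10:42385982-42386129 both had peaks in 17 lists, just short of the 18 at which regions were left out of this ranking. The widest gained region, chr2:242948623-242952711, spanned 4089 bp with 13 summits at 4.90-fold enrichment, and MBD3 and TET2 had BPK25 peaks there.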

How the data were processed

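Peak lists of ChIP-seq in H9 cells were used. Each was called on replicates 1 to 3 of a group against a control, per the labels. Which input served as control is not given in the sources used here. Per the submitters' processing notes, build hg19 was used, and the tools named are MACS2 2.1.2, Bowtie2 2.3.4, bedtools 2.25.0, SAMtools 1.9 and FastQC 0.11.7. For each summit the authors deposited the fold enrichment, a linear ratio over local background, and the p-value and q-value as −log10. The highest q-value in both TET1 lists was 0.04999.

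Summit rows (47511 in DMSO, 89856 in BPK25) were collapsed to 1 region per interval with its highest −log10 q. Pileup and background were solved from a Poisson distribution with a pseudocount of 1, to within 0.01 in −log10 p, wherever that was at most 12. The overlap code was checked against bedtools 2.31.1 and on simulated data. Scripts used matplotlib 3.10.9, scipy 1.17.1, pandas 2.3.3, numpy 2.4.6 and Python 3.11.15.

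Members and lists were chosen with earlier results of these data known. No test was made, since each list is 1 pooled value per group. Alternatives were reciprocal overlap, a 500 bp window, cuts of both lists on −log10 q or on fold enrichment, and equal list lengths. Further ones were leaving out the 630 merged regions with peaks in at least 18 lists, and named chromosomes only. Kept, lost and gained were formed anew under each alternative. Leaving out chromosome 1, equal lengths of the other lists, width groups and summit overlap were chosen after the data were seen. Named regions were the 4 of highest −log10 q per class (for kept, by the lower of both lists) on chromosomes 1 to 22 and X outside those merged regions, plus the widest. Genes and sequences of hg19 were not used here.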

Additional observations from a re-analysis of the deposited data

How the results depend on the processing

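No paired analysis was possible because each list pools its 3 replicates, and for the same reason no replicate could be left out. Pileups of about 10 fragments and unknown depth limit all shares. The 8 values of the comparison were computed under 8 alternatives, 7 planned and 1 (without chromosome 1) chosen after the data were seen. Of the 64 values, 18 stayed inside the 95% interval and 46 moved out of it. The 5 results that are differences kept their sign in all 40 of their values, and shares cannot change sign. The causes were not tested.

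With reciprocal overlap of 50% the kept share was 19.9% and the gained share 89.4%, and kept minus lost was 7.18 points for CTCF, 15.6 for MBD3, 19.2 for TET2 and 16.2 for TET3. With the 500 bp window these were 42.7%, 77.2%, 7.80, 16.6, 20.5 and 18.2, the day 0 BPK25 share of gained regions was 29.9% and gained minus kept width -33 bp (-44 bp as reported). With both lists cut to −log10 q of at least 5, the kept share was 20.4% and the gained share 88.9%. MBD3 was then 9.07, TET2 16.7, TET3 6.32, the day 0 share 51.5% and the width difference -64.5 bp. With both lists cut to at least 4-fold enrichment, these shares were 17.5% and 85.7%. CTCF was 10.8, MBD3 20.2, TET3 21.8, the day 0 share 28.6% and width -49 bp. With equal lengths they were 21.0% and 79.1%, MBD3 17.9, TET3 18.8, day 0 share 35.4% and width -58 bp. Without regions peaking in 18 lists they were 31.9% and 83.0%, CTCF 7.83, MBD3 17.6, TET2 21.8, TET3 18.6 and width -40 bp. Without chromosome 1 they were 31.9% and 83.6%, CTCF 8.06, MBD3 17.8 and day 0 share 29.0%.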

Other observations

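The WT lists of CTCF and MBD3 gave the same order of classes as the DMSO lists, but kept and lost regions lay closer together in them. On day 4 the WT MBD3 list had a peak at 43.4% (42.6 to 44.2) of kept, 33.1% (32.5 to 33.6) of lost and 5.50% of gained TET1 regions, and the WT CTCF list at 15.0%, 9.50% and 1.21%. In the DMSO lists these were 48.3%, 29.2% and 6.21% for MBD3 and 18.5%, 9.09% and 1.66% for CTCF.

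In the day 9 BPK25 list of MBD3, gained regions ranked above lost regions. This list had a peak at 28.4% of kept, 14.5% of gained and 8.79% of lost day 4 TET1 regions, whereas the DMSO list of MBD3, of nearly the same length (44052 against 44297 regions), had one at 7.58%, 1.98% and 4.79%. TET3 of day 9 in DMSO cells had the same order as the DMSO list of MBD3, at 36.1% of kept, 18.8% of lost and 4.12% of gained regions. The day 9 BPK25 list of TET3 held 321 regions and could mark few of them.

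TET3 of day 0 in DMSO cells, which were not given BPK25, had a peak at 18.4% (18.1 to 18.7) of the regions gained on day 4, 20.9% of kept and 3.62% of lost regions. At the same regions moved by 10 kb these were 2.81%, 3.598% and 1.92%.

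On contigs that are not placed on a chromosome or are alternative, 439 of 463 BPK25 regions were gained, against 82.3% of the whole list. Of the 44 DMSO regions there 22 were kept and 22 lost, against 32.8% kept in the whole list. All 9 mitochondrial regions of the DMSO list were kept, and all 13 of the BPK25 list were shared.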
